A study of Coprinopsis cinerea AmutBmut pab1-1 with 201 samples.

Results

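The genes described here have a counted transcript without an intron, and their expression was followed in the inky cap mushroom Coprinopsis cinerea, strain AmutBmut pab1-1. A gene was taken when its counted transcript had exactly 1 exon in the deposited annotation, a coding part of more than 300 bp and an identifier number under 1000000. These limits left 527 single-exon genes, 3.87% of the 13617 genes counted. They were compared with 10788 genes of 2 or more exons under the same limits on length and identifier. Of those, 316 had their whole coding part in 1 exon and introns only in a UTR, which makes them the closest class. Among 1083 counted genes of 1 exon, 256 were left out by the identifier alone, 44 by length alone and 256 by both.

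RNA from 67 groups of 3 libraries was sequenced from the 3′ end. All groups share the strain, which carries mutations in both mating type factors (AmutBmut), so that it fruits without a partner, and the marker pab1-1. The groups used most here are oidia (asexual spores) at 0 h and after 18 h of germination, and basidiospores (sexual spores) at 0 h, 4 h, 8 h and 12 h. Vegetative mycelium grown in the dark was taken at 12 h, 60 h and 132 h, and as aerial and attached mycelium at 156 h, just before light. Aerial and attached mycelium were also taken 1 h into a 2 h light induction. After that induction and 24 h of darkness came aerial mycelium, attached mycelium and hyphal knots, the first aggregates of a fruiting body. Primordia, young fruiting bodies, were taken at 24 h of a cycle of 12 h light and 12 h dark. Sclerotia, resting bodies, had grown for 4 weeks, and their label warns of slight contamination with mycelium. Heat shock was 2 h at 47 °C on cultures of 6 days. Starved colonies had spent 24 h on water agar, against mycelium of 60 h. Hydrogen peroxide was given at 1 mM for 3 h, against a group labelled as the control for the liquids (the liquid control). Cobalt chloride was given at 2 mM to cultures of 7 days with 2 h of light and 22 h of darkness, copper sulfate at 2 mM for 6 h, and hypoxia lasted 24 h. Cobalt and hypoxia each had a control of their own, while the copper control also served calcium and voriconazole. Levels are also given for voriconazole, an antifungal, at 0.5 µg/ml for 48 h, and for cold (4 °C for 4 h). Others are from mycelium of 6 days after 30 minutes at −20 °C and from plates sealed for 6 days in the dark at 28 °C (CO2). Levels of colonies after 4 h on water agar and of attached mycelium 12 h and 18 h after light are given too. On 1% water agar, hyphal knots were set against a group also labelled hyphal knot, whose "- 30h" is read here as a time before the knots. The group labelled "- 22.5h" (a_22_5) is read in the same way.

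Most genes of mushroom-forming fungi are split by several short introns, which the spliceosome removes from the transcript. In Coprinopsis cinerea an intron in a transgene is known to help its expression. In animals, plants and yeast, genes that respond fast to stress are known to be poor in introns. The genes here carry identifiers but no names or products, so they are described by structure, position and level, with no role assigned. No sequence is shown and no marker of a tissue was checked, since neither names nor a genome were used.

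Total counts per library ran from 213735.6 to 26101402.1 around a median of 9984538.2. The 3 shallowest libraries are all from cultures where the mould Trichoderma and Coprinopsis cinerea grew over each other for 60 h (CTGT). These libraries stand apart in several measures, and results that rest on them are given with and without that group. The labels do not say whether the replicates were separate cultures. The p-values therefore measure the spread between these libraries, which may be technical. In such bulk samples, fewer cells of a kind and less RNA per cell cannot be told apart.

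The single-exon genes were shorter than split genes and had fewer annotated UTRs. Their median coding length was 900 bp against 1284 bp, and the longest reached 5562 bp. A 3′ UTR, the stretch in which most reads of this assay fall, was annotated for 382 of the 527 (72.5%) and for 93.4% of the split genes. No UTR of either end was annotated for 128 of them (24.3%), against 6.06%. They lay on both strands alike, with 50.7% on the plus strand. Another counted gene overlapped 122 of them (23.1%), 100 on the opposite strand, while 30.2% of the split genes overlapped one. The strand setting of the counting is not given in the sources used here, so reads of overlapping genes cannot be told apart. For 85 of them (16.1%), against 8.57%, counts were not whole numbers in at least 50% of the libraries with a count, so their reads may be split with close copies. A spliced isoform, itself not counted, was annotated for 41 of the 527. The genes were spread over the scaffolds, from 3.04% of the counted genes on scaffold 6 to 5.6% on scaffold 10 among the 13 largest.

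Single-exon genes were found at much lower transcript levels than split genes. The level of a gene is given here as its mean over the 67 groups of log2 CPM (counts scaled to a common library size with TMM factors, prior count 2). Their median level was 0.28, with the middle 50% between −1.94 and 3.40, against a median of 3.79 for split genes. The difference of −3.51 was nearly the same in each set of equally numbered libraries, at −3.49, −3.51 and −3.50. A gene with no count lies at about −2.32 in a library of median depth, so many of the 527 were at or near the floor. The median level was 2.66 for genes of 2 exons, 3.71 for 3 to 5, 4.16 for 6 to 9 and 3.99 for 10 or more. Genes with introns only in a UTR had a median of 2.80, close to genes of 2 exons.

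The difference was smaller among genes with an annotated 3′ UTR. There the medians were 2.21 for single-exon genes and 3.99 for split genes, which is −1.78. Among genes without one the 145 single-exon genes had a median of −2.16 and the 710 split genes −2.23, both near the floor. Coding length also went with the gap. Up to 600 bp the median was −1.40 against 3.6, above that to 900 bp 0.86 against 3.61, and above that to 1500 bp 1.72 against 3.50. Above 1500 and up to 3000 bp it was 1.99 against 3.90, and the 6 genes over 3000 bp had 2.59 against 4.60. With both the 3′ UTR annotated and the shortest length, single-exon genes were still at 0.13 and split genes at 4.00. The 85 genes with shared reads had a median level of −2.26 and the others 1.28. Genes overlapping another counted gene had 2.26 and those without overlap −0.38. The 41 genes with a spliced isoform had 3.01.

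**Figure D1:**
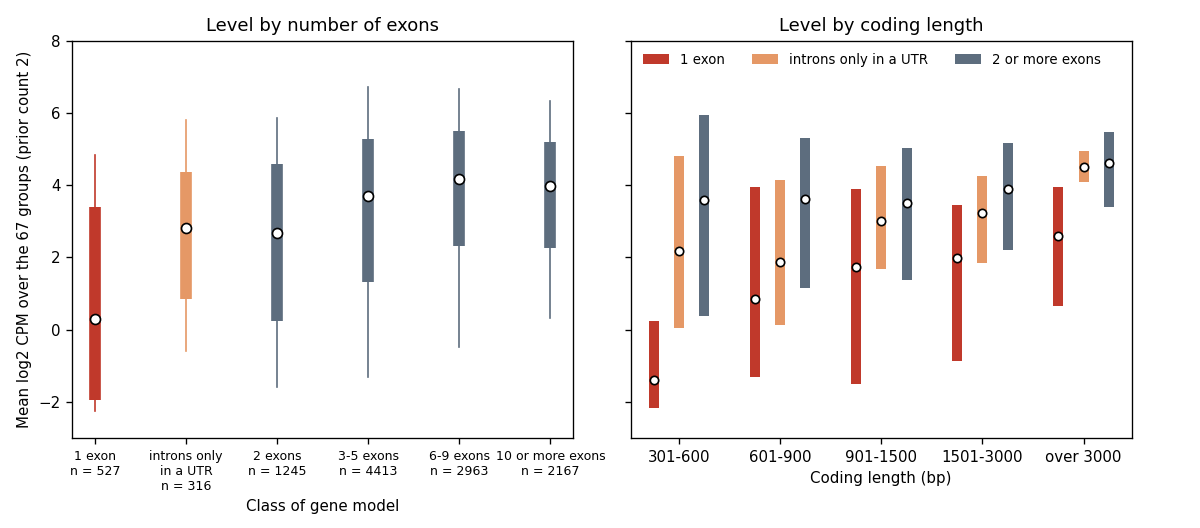
Level of each gene as its mean log2 CPM over the 67 groups, by number of exons (left) and by coding length in bp (right). Circles are medians over genes, thick bars the middle 50% and thin lines (left) the middle 80%; genes with introns only in a UTR are also part of the classes of 2 or more exons. Single-exon genes lie lowest in every class of length, with medians from −1.40 to 2.59.

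A small number of genes carried most of the signal. The 527 genes held 1.33% of a library's counts on average, between 0.586% and 2.30% over the 201 libraries. The most abundant one made up 22.9% of their summed mean CPM and the 10 most abundant together 53.1%. A mean of 100 CPM or more was reached by 18 of them (3.42%), against 12.3% of split genes. At the other end, 255 (48.4%) had a median under 1 CPM over the groups, against 16.0% of split genes.

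Fewer of them were seen everywhere. Taking a group mean of 1 CPM as seen, 145 (27.5%) were seen in all 67 groups, against 60.9% of split genes and 46.8% of those with introns only in a UTR. In no group were 85 (16.1%) seen, against 3.65%, and 39 were seen in exactly 1 group. Without CTGT 423 were seen in any group, against 442 with it, so some of the 39 were seen in CTGT alone. Specificity was measured by tau, which is 0 for a gene at the same level in every group and 1 for a gene with counts in a single group. Over the 442 single-exon genes seen in any group the median tau was 0.556, against 0.343 for split genes. A tau of 0.75 or more was found for 32.6% of them and 10.99% of split genes, and a tau under 0.25 for 12.7% and 29.8%. Tau is higher for genes near the floor, so these values move with the lower levels described above.

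The gap was below 0 in 201 of 201 libraries. As the difference of the medians in a library it ran from −6.05 to −1.54, with a median of −3.36, and both ends belonged to the shallow CTGT group. The SD within a group had a median of 0.101. It was widest in germinating basidiospores, at −4.19 ± 0.23 after 4 h, −4.00 ± 0.23 after 8 h and −4.16 ± 0.42 after 12 h (mean ± SD, n = 3 here and below). It was narrowest after heat shock, at −2.60 ± 0.19, in resting oidia, at −2.64 ± 0.02, and in attached mycelium 12 h after light, at −2.93 ± 0.09. For genes with an annotated 3′ UTR the gap lay between −2.94 and −1.31 in every library. There resting oidia did not stand out, at −1.84 ± 0.09 with a median of −1.80 over libraries, and the narrowest gaps were −1.41 ± 0.10 in attached mycelium 18 h after light, −1.43 ± 0.04 at 12 h and −1.49 ± 0.08 after heat shock.

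In resting oidia and after heat shock more of the single-exon genes were seen than elsewhere. In a library 57.5% ± 1.4 of them were seen in resting oidia and 57.6% ± 0.9 after heat shock. The median over groups was 51.6%, and the lowest value was 43.3% ± 2.6, in basidiospores after 4 h. Of the split genes 81.3% were seen in resting oidia and 83.2% after heat shock, against a median over groups of 83.1%. Genes without an annotated 3′ UTR moved most in oidia, where 22.3% ± 1.1 of those with 1 exon were seen, against a median of 3.68% over groups. Split genes without a 3′ UTR were also seen more often in resting oidia, at 17.6% ± 0.5 against a median of 11.6%. After heat shock these values were 9.89% ± 1.7 and 15.5% ± 1.3. Of the 67 groups only CTGT, at its low depth, had more split genes of this kind seen than resting oidia, with 28.6% ± 4.7. The resting oidia libraries also lay below the median depth of 9984538.2, at 6242145.8, 3842221.6 and 6150105.9 counts. The part that annotation or depth plays in these values was not tested.

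**Figure D2:**
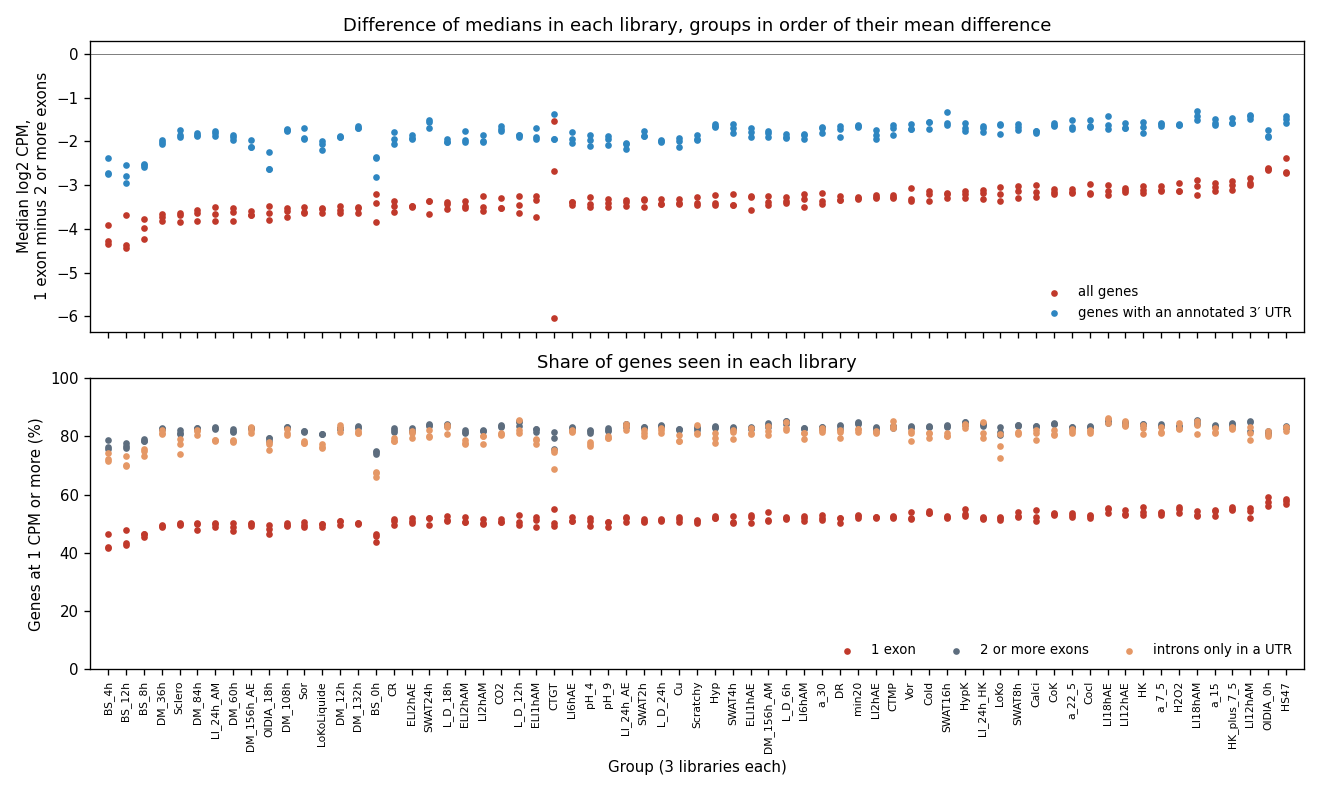
Upper panel, difference between the median log2 CPM of single-exon genes and of genes of 2 or more exons in each of the 201 libraries, for all genes and for genes with an annotated 3′ UTR; lower panel, percent of genes at 1 CPM or more. Each point is 1 library and groups are ordered by their mean difference, from germinating basidiospores (BS_4h) at −4.19 to heat shock (HS47) at −2.60, with the wide scatter of CTGT between −6.05 and −1.54.

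Counted by the group in which each gene was highest, resting oidia led with 65 of the 442 genes seen (14.7%, against 9.27% of split genes) and heat shock followed with 61 (13.8% against 8.68%). Resting basidiospores held 44 (9.95% against 15.0%), and CTGT 41 (9.28% against 5.98%). Both kinds of resting spore together held 109 (24.7%), close to the 24.3% of split genes. Without CTGT the spores held 28.1% of single-exon genes, 25.6% of split genes and 26.4% of those with introns only in a UTR.

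The 2 most abundant single-exon genes were neighbours. CopciAB_446986.T0 (scaffold 13, 234818 to 235778, plus strand, coding length 582 bp) averaged 3099 CPM over the groups. It peaked with cobalt chloride, at 11084, 11302 and 8917 CPM, and its control for cobalt was as high, at 10836, 12178 and 7882. In resting basidiospores it was at 5.62 ± 1.98 CPM. Its counts were not whole in 58.7% of libraries, so its reads may be split with a close copy. CopciAB_469868.T0 (scaffold 13, 236484 to 237266, plus strand, 492 bp) starts 706 bp past its end and averaged 870 CPM. It was highest in the cobalt control, at 4538, 4752 and 2896 CPM, and lowest in resting basidiospores, at 0.911 ± 0.420 CPM. Unlike them, CopciAB_437196.T0 (scaffold 3, 1148970 to 1149879, 630 bp) was highest in resting basidiospores, at 9570, 9980 and 7305 CPM. Its next highest group, voriconazole, held 2039 ± 136 CPM and its lowest, resting oidia, 44.4 ± 10.1.

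Of the other abundant genes, CopciAB_112842.T0 (582 CPM on average) and CopciAB_431423.T0 (414 CPM) each overlap a gene on the opposite strand, and both were lowest in resting basidiospores, at 11.53 ± 2.55 and 6.38 ± 1.35 CPM. CopciAB_470919.T0 (310 CPM) ranged from 0.248 ± 0.082 CPM in basidiospores after 4 h to 793 ± 74 after 4 h on water agar. CopciAB_19597.T0 (scaffold 5, 855517 to 856906, 1023 bp, 274 CPM) ranged from 0.23 ± 0.053 CPM in germinated oidia to 1726 ± 136 on water agar (a_22_5). CopciAB_439213.T0 (222 CPM) was at 0.226 ± 0.318 CPM in resting basidiospores and at 1192 ± 294 in attached mycelium 12 h after light. CopciAB_437832.T0 (235 CPM) scattered most between libraries, with 4510, 481 and 559 CPM in the copper group.

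The most even genes, among those reaching 50 CPM without shared reads or overlap, included longer ones. CopciAB_435173.T0 (scaffold 1, 105232 to 109352, 3579 bp) had a tau of 0.132 and ran from 25.1 ± 3.2 CPM with copper to 98.6 ± 19.2 in attached mycelium 18 h after light. CopciAB_443314.T0 (2448 bp, tau 0.143), CopciAB_89032.T0 (1086 bp, tau 0.167), CopciAB_425566.T0 (1029 bp, tau 0.172) and CopciAB_418175.T0 (2157 bp, tau 0.183) followed. CopciAB_425566.T0 was the only gene both among the 10 most abundant and the 5 most even. It held between 194 ± 48 CPM in basidiospores after 12 h and 1254 ± 55 after heat shock. The abundant CopciAB_431423.T0 and CopciAB_112842.T0 had a still lower tau, 0.122 and 0.126, and were left out of the even genes for their overlap.

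The 5 most specific genes, chosen with the same limits, were all highest in a resting spore. CopciAB_499131.T0 (scaffold 5, 2692724 to 2694040, 1314 bp, tau 0.989) was at 118, 184 and 12.4 CPM in resting basidiospores and was seen in 3 groups. CopciAB_455417.T0 (scaffold 6, 2004401 to 2005373, 738 bp, tau 0.960) was at 145, 135 and 67.7 CPM there and at 17.5 ± 8.4 after 4 h. The other 3 peaked in resting oidia. CopciAB_543686.T0 (scaffold 10, 100378 to 101369, 912 bp) held 41.7, 73.5 and 79.0 CPM there. CopciAB_92341.T0 (scaffold 3, 2494267 to 2495373, 1104 bp) held 285, 133 and 166 CPM. CopciAB_395862.T0 (scaffold 5, 2604384 to 2606026, 1518 bp) held 129, 110 and 151 CPM. In oidia after 18 h these 3 held 3.58 ± 0.40, 6.39 ± 3.37 and 3.58 ± 0.92 CPM.

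**Figure D3:**
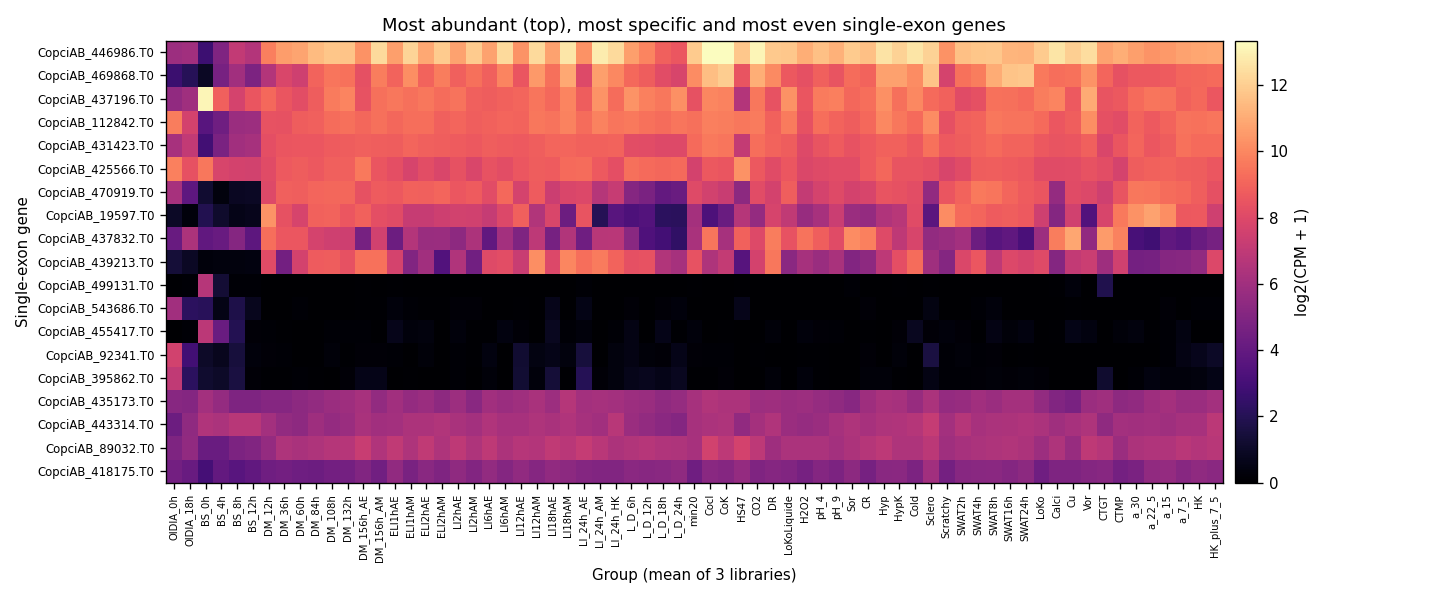
Mean log2(CPM + 1) over 3 libraries in each of the 67 groups for the 10 most abundant, the 5 most specific and the 5 most even single-exon genes (CopciAB_425566.T0 is in both the first and the last set and is drawn once). The abundant genes are mostly low in the spore groups at the left, CopciAB_437196.T0 is brightest in resting basidiospores, and the specific genes are dark nearly everywhere outside them.

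Some single-exon genes lay next to each other. Among the 527, 96 had another one as the neighbouring counted gene, in 43 pairs, 2 runs of 3 and 1 run of 4. The run of 4 lies on scaffold 6 from 2133368 to 2140208, and its coding lengths of 1518, 1500, 1536 and 1488 bp are alike. Its members differed in level. CopciAB_14289.T0 averaged 6.46 CPM, CopciAB_371009.T0 13.0, CopciAB_479819.T0 3.82 and CopciAB_437340.T0 0.386. The first 2 overlap on opposite strands. CopciAB_371009.T0 was highest in aerial mycelium 24 h after light, at 45.0, 21.2 and 39.2 CPM. CopciAB_479819.T0 was highest in primordia, at 16.1, 22.1 and 19.1 CPM.

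The genes named at the limit of length were low on average. Just inside it, CopciAB_503052.T0 (303 bp) averaged 0.15 CPM and CopciAB_370780.T0 (306 bp) 0.0549. Just outside, CopciAB_384501.T0 and CopciAB_496606.T0, both of 300 bp, averaged 0.0217 and 0.118. In resting oidia CopciAB_496606.T0 held 4.19, 10.7 and 6.28 CPM.

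Changes were tested in 18 comparisons of 2 groups each, with a gene called at an adjusted p under 0.05 over all genes tested and a fold of 2 or more (edgeR's quasi-likelihood test). Only 220 of the 527 passed the filter on low counts in all 18, 120 passed in none and 187 in some, so the counts below are of tested genes, not of all 527. A low gene passes that filter more easily when it is high in 1 of the groups compared. The part of the filter in the high shares of calls among low genes was not tested. The p-values of named genes near the floor in 1 of the groups compared carry this limit too. Split genes of the same class of level are given beside, but under a level of 1 the tested single-exon genes lay lower within the class, with median levels of −0.84 against −0.06 in the spore fit, −0.13 against 0.25 for heat shock and 0.03 against 0.41 for peroxide. In at least 1 comparison 393 were called, 17 in 10 or more, and the highest number of calls for a gene was 14.

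When oidia germinated, single-exon genes fell more often than other genes. After 18 h, 133 of 341 tested were lower (39.0%), against 26.6% of all genes tested, and 58 were higher (17.0%), against 26.4%. Their median log2 change was −0.71, with 0.02 for all genes. CopciAB_461099.T0 (scaffold 8, 365356 to 365970, 612 bp) held 6.86, 16.8 and 10.6 CPM in resting oidia and 0.089, 0.168 and 0.169 CPM after 18 h. Its log2 change was −6.02 ± 0.59 (SE). CopciAB_477967.T0 (scaffold 7, 2634808 to 2635454, 474 bp) went from 23.8, 27.1 and 30.7 CPM to 0.801, 0.253 and 0.507, a log2 change of −5.51 ± 0.51. Neither has an annotated 3′ UTR. Over all groups both were highest in resting oidia, with a tau of 0.906 and 0.995, and may have passed the filter through them. Their falls are therefore given as a description with no test.

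The largest rise was that of CopciAB_322827.T0 (scaffold 3, 3210001 to 3211905, 1644 bp). It went from 1.78, 0.616 and 1.35 CPM to 209, 257 and 201, a log2 change of 7.56 ± 0.33 (adjusted p = 1.64e-10). CopciAB_451488.T0 (scaffold 3, 1222702 to 1223500, 762 bp) followed, from 3.18, 2.26 and 2.96 CPM to 177, 168 and 118 (5.93 ± 0.29, adjusted p = 3.89e-10). In both the libraries of the 2 groups lay far apart.

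The share also went with the level of the gene. Of single-exon genes with a level under 1, 62.4% of 117 were lower after germination, against 50.1% of split genes in that class. At 1 to 3 the shares were 39.2% and 34.4%, at 3 to 5 they were 21.6% and 20.0%, at 5 to 7 they were 13.2% and 11.7%, and at 7 or more, with 10 single-exon genes, 30.0% and 6.9%. Genes with introns only in a UTR were lower in 38.8% and higher in 18.7%, close to the single-exon genes. Among the 199 tested genes with an annotated 3′ UTR, no overlap and whole counts, 34.7% were lower and 18.1% higher. Split genes under these limits are not given here or below, so no like background stands beside such shares.

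Basidiospores showed no such tilt after 12 h. There 111 of 341 were higher (32.6%, against 34.0% of all genes) and 117 lower (34.3% against 31.4%). The median log2 change was 0.25 for single-exon genes and 0.11 for all genes. For genes with introns only in a UTR the shares were 30.6% higher and 38.5% lower. CopciAB_322827.T0 rose here too, from 1.47, 1.51 and 1.04 CPM to 93.9, 93.2 and 122.7 (6.29 ± 0.32, adjusted p = 4.89e-11). CopciAB_488448.T0 (scaffold 2, 495467 to 495811, 342 bp, no annotated 3′ UTR) had no count in resting basidiospores and 4.80, 5.53 and 23.6 CPM after 12 h. With the floor set at 3 counts over the 3 libraries it was at least 83.0-fold higher. It was highest in basidiospores after 12 h and may have passed the filter through them, so this is a description with no test.

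The basidiospore genes named above as specific were chosen for their peak in these resting libraries, so their levels after 12 h are given as a description with no test. CopciAB_455417.T0 was at 0.236, 0.0838 and 0.114 CPM after 12 h. CopciAB_499131.T0 was left with 3 counts in all at 12 h, against 2157 at 0 h. Its ratio was 576, with a 95% exact counting interval from 197 to 2793 that covers counting error only. Its library 3 of resting basidiospores, at 12.4 CPM, stood well under the other two.

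Resting oidia and resting basidiospores differed in 238 of the 341 tested. In oidia 164 were higher (48.1%, against 35.5% of all genes) and 74 lower (21.7% against 28.6%). Their median log2 difference was 1.04 and that of all genes 0.23. The closest class, with introns only in a UTR, had similar shares, 46.4% higher and 24.5% lower, with a median of 0.73. This comparison shares libraries with both courses above, so its tilt is not a further sign of the same difference. CopciAB_403313.T0 (scaffold 7, 2424734 to 2425960, 1170 bp) held 4.19, 15.0 and 13.8 CPM in oidia and no count in basidiospores, at least 86.8-fold higher. It was highest in resting oidia and may have passed the filter through them, so this is a description with no test. CopciAB_455417.T0 had no count in oidia and was at least 742-fold lower there, again as a description. At a level under 1, 63.2% of single-exon genes were higher in oidia and 43.6% of split genes. At 1 to 3 the shares were 44.3% and 40.9%, at 3 to 5 35.1% and 31.9%, at 5 to 7 39.5% and 26.7%, and at 7 or more, with 10 single-exon genes, 60.0% and 30.8%.

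After heat shock more single-exon genes rose than fell. Against dark mycelium of 132 h, 117 of 325 tested were higher (36.0%, against 27.4% of all genes) and 71 lower (21.8% against 28.4%). Their median log2 change was 0.43, with −0.06 for all genes. CopciAB_405895.T0 (scaffold 10, 2062541 to 2063473, 774 bp) held 0.41, 0.278 and 0.357 CPM in control mycelium and 31.7, 51.1 and 30.1 after heat shock (6.74 ± 0.48). It was highest after heat shock and may have passed the filter through that group, so no test is given. CopciAB_200761.T0 (scaffold 6, 2696940 to 2698415, 1191 bp) went from 1.15, 0.649 and 1.61 CPM to 82.1, 124 and 68.5 (6.36 ± 0.50, adjusted p = 3.66e-08). Over all groups it was highest with copper.

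Among those that fell, CopciAB_447616.T0 (scaffold 2, 3881036 to 3881857, 570 bp) went from 83.9, 52.2 and 112 CPM to 0.789, 1.53 and 0.254 (−6.61 ± 0.45, adjusted p = 8.22e-10). CopciAB_69185.T0 (scaffold 7, 666937 to 667797, 723 bp) went from 115, 82.9 and 146 CPM to 4.21, 3.41 and 3.56 (−4.88 ± 0.61, adjusted p = 3.32e-05). Groups of libraries that did not overlap were a condition for naming these 4 genes.

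By level, the lowest class had the highest share of rises in both kinds of gene. Under 1, 57.6% of 85 single-exon genes were higher after heat shock against 41.7% of split genes. At 1 to 3 the shares were 30.1% and 29.3%, at 3 to 5 they were 28.3% and 23.8%, at 5 to 7 they were 26.3% and 19.4%, and at 7 or more 20.0% and 13.0%. Genes with introns only in a UTR were higher in 29.5%. With an annotated 3′ UTR, no overlap and whole counts, 33.3% were higher and 24.5% lower, with no like share of split genes to set beside them.

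In sclerotia the single-exon genes changed about as often as others. Against mycelium of 132 h, 71 of 325 were higher (21.8% against 19.5%) and 68 lower (20.9% against 21.0%). CopciAB_441882.T0 (scaffold 1, 3593681 to 3594393, 513 bp) rose from 0.657, 0.371 and 0.268 CPM to 14.6, 22.8 and 33.7 (5.76 ± 0.60). It was highest in sclerotia and may have passed the filter through them, so no test is given. The abundant CopciAB_19597.T0 fell from 430, 466 and 259 CPM to 17.5, 4.68 and 14.0 (−4.97 ± 0.41, adjusted p = 9.56e-08).

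Ageing of dark mycelium from 12 h to 132 h called 29 of 325 higher (8.92% against 8.33%) and 25 lower (7.69% against 7.36%), both near the background. CopciAB_467706.T0 (scaffold 5, 1519012 to 1520246, 744 bp) fell from 31.8, 42.6 and 76.6 CPM to 13.7, 13.6 and 10.4 (−2.04 ± 0.40, adjusted p = 0.0019). These 3 comparisons share the libraries of 132 h.

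CopciAB_448984.T0 (scaffold 7, 603634 to 604358, plus strand, 426 bp) was the named gene of 5 comparisons and varied widely between groups and between libraries of a group. At 12 h in the dark it had 1 count in 3 libraries, and at 132 h it held 4.02, 1.39 and 73.2 CPM. The ratio was 800, with a 95% exact counting interval from 143 to 31649 (adjusted p = 0.0141). That call was lost when any 1 library of 12 h was left out and in a fit of these 2 groups alone. At 156 h it had no count in aerial mycelium and 141, 105 and 11.05 CPM in attached mycelium, at least 1051-fold lower in the former (adjusted p = 5.11e-06), a call also lost in a fit of the 2 groups alone. After 1 h of light the attached mycelium held 0.196, 0.36 and 0.275 CPM (−8.23 ± 1.08, adjusted p = 4.08e-05). At 24 h after light it was back at 1171, 764 and 362 CPM in attached mycelium.

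Over the 67 groups CopciAB_448984.T0 was highest in sclerotia, at 879.6, 1149.8 and 667 CPM. After heat shock it held 391, 350 and 302 CPM, after 30 minutes at −20 °C 317, 436 and 323, and in sealed plates (CO2) 265, 176 and 101. In dark mycelium of 60 h, in basidiospores after 4 h and 12 h and in the cold treatment it had no count. Its tau was 0.861, and libraries of 1 group scattered, as the 3 of 132 h show.

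Aerial and attached mycelium in the dark differed in 72 of 336 single-exon genes tested, 23 higher in aerial mycelium (6.85% against 7.56% of all genes) and 49 lower (14.6% against 10.8%). CopciAB_439222.T0 (scaffold 3, 3306763 to 3308383, 840 bp) was higher in aerial mycelium, with 10.7, 9.39 and 11.6 CPM against 1.64, 1.76 and 2.32 (2.42 ± 0.43, adjusted p = 0.000142).

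Light for 1 h changed single-exon genes about as often as other genes. In aerial mycelium 26 were higher (7.74% against 6.61%) and 22 lower (6.55% against 7.34%). In attached mycelium 24 were higher (7.14% against 6.17%) and 34 lower (10.1% against 9.91%). In aerial mycelium CopciAB_448472.T0 (scaffold 12, 747805 to 749248, 1287 bp) rose from 4.77, 7.59 and 10.1 CPM to 48.1, 51.9 and 45.7 (2.70 ± 0.40, adjusted p = 6.43e-05), and it was highest there among all groups. CopciAB_9181.T0 (scaffold 2, 968284 to 969625, 450 bp) fell from 442, 327 and 275 CPM to 50.4, 51.5 and 78.1 (−2.52 ± 0.36, adjusted p = 5.12e-05). In attached mycelium CopciAB_450762.T0 (scaffold 10, 887988 to 889949, 1611 bp) rose from 5.55, 6.39 and 8.64 CPM to 20.0, 32.0 and 23.9 (1.87 ± 0.29, adjusted p = 7.05e-05).

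The response to light was itself tested for a difference between aerial and attached mycelium. Of the 336, 14 had a more positive change in aerial mycelium (4.17% against 2.69% of all genes) and 1 a more negative one (0.298% against 0.813%). The clearest was CopciAB_372401.T0 (scaffold 12, 1747147 to 1748835, 1599 bp). It rose in aerial mycelium from 0.275, 0.548 and 0.388 CPM to 3.25, 3.95 and 5.62, and fell in attached mycelium from 6.01, 4.87 and 7.84 to 0.588, 0.36 and 1.92. The difference of the log2 changes was 6.18 ± 0.65 (adjusted p = 6.48e-06).

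Hyphal knots had more single-exon genes higher than the attached mycelium around them. At 24 h after light, 53 of 336 were higher (15.8%, against 8.56% of all genes) and 35 lower (10.4% against 9.23%). Against aerial mycelium 47 were higher (14.0% against 10.2%) and 28 lower (8.33% against 8.02%), and both comparisons share the knot libraries. By level the shares higher than in attached mycelium were 19.8% for single-exon genes and 14.3% for split genes under 1, and 19.4% and 13.7% at 1 to 3. At 3 to 5 they were 10.1% and 6.5%, at 5 to 7 13.2% and 4.6%, and at 7 or more 10.0% and 5.4%, the last 2 over 38 and 10 single-exon genes. Genes with introns only in a UTR were higher in 9.4%, near the background. With an annotated 3′ UTR, no overlap and whole counts 20.0% were higher, with no like share of split genes to set beside it.

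CopciAB_492261.T0 (scaffold 7, 608333 to 609183, 621 bp) held 0.561, 1.16 and 0.863 CPM in attached mycelium and 233, 13.9 and 86.1 in knots (6.91 ± 1.04, adjusted p = 6.84e-05). It starts 3975 bp past the end of CopciAB_448984.T0, with 1 single-exon gene left out by its identifier in between. CopciAB_448984.T0 did the opposite there, at 0.564, 0.916 and 1.00 CPM in knots against the values above (−9.92 ± 1.03, adjusted p = 2.06e-06). CopciAB_145676.T0 (scaffold 7, 1140441 to 1142429, 1779 bp) rose from 0.935, 1.33 and 0.173 CPM to 23.9, 14.6 and 14.1 (4.34 ± 0.51, adjusted p = 1.91e-06). In primordia it rose again, to 217, 237 and 238 CPM (3.68 ± 0.42 against knots, adjusted p = 5.32e-07), its highest group.

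CopciAB_379664.T0 (scaffold 11, 489561 to 490867, 1065 bp) was lower in knots, at 2.10, 3.91 and 4.36 CPM against 302, 248 and 109 in attached mycelium (−6.07 ± 0.67, adjusted p = 1.64e-06). Against aerial mycelium, CopciAB_445554.T0 (scaffold 3, 3640738 to 3642587, 1527 bp) was higher, at 25.7, 7.75 and 15.0 CPM against 0.432, 0.346 and 0.345 (5.41 ± 0.44, adjusted p = 3.74e-09). CopciAB_19597.T0 was lower, at 4.43, 24.3 and 4.82 CPM against 189, 657 and 236 (−5.0 ± 0.90, adjusted p = 0.000349).

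From knots to primordia 42 were higher (12.5% against 13.0%) and 80 lower (23.8% against 19.5%). CopciAB_445964.T0 (scaffold 6, 782008 to 783038, 459 bp) rose from 12.8, 5.16 and 3.00 CPM to 243, 42.9 and 63.4 (4.01 ± 0.77, adjusted p = 0.000344). CopciAB_69185.T0 fell from 67.7, 96.0 and 81.7 CPM to 3.71, 2.33 and 1.89 (−4.97 ± 0.31, adjusted p = 9.90e-11). CopciAB_437832.T0 (scaffold 5, 342757 to 343608, 774 bp) fell from 69.7, 129 and 131 CPM to 4.22, 5.96 and 2.44 (−4.74 ± 0.48, adjusted p = 8.51e-08).

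**Figure D4:**
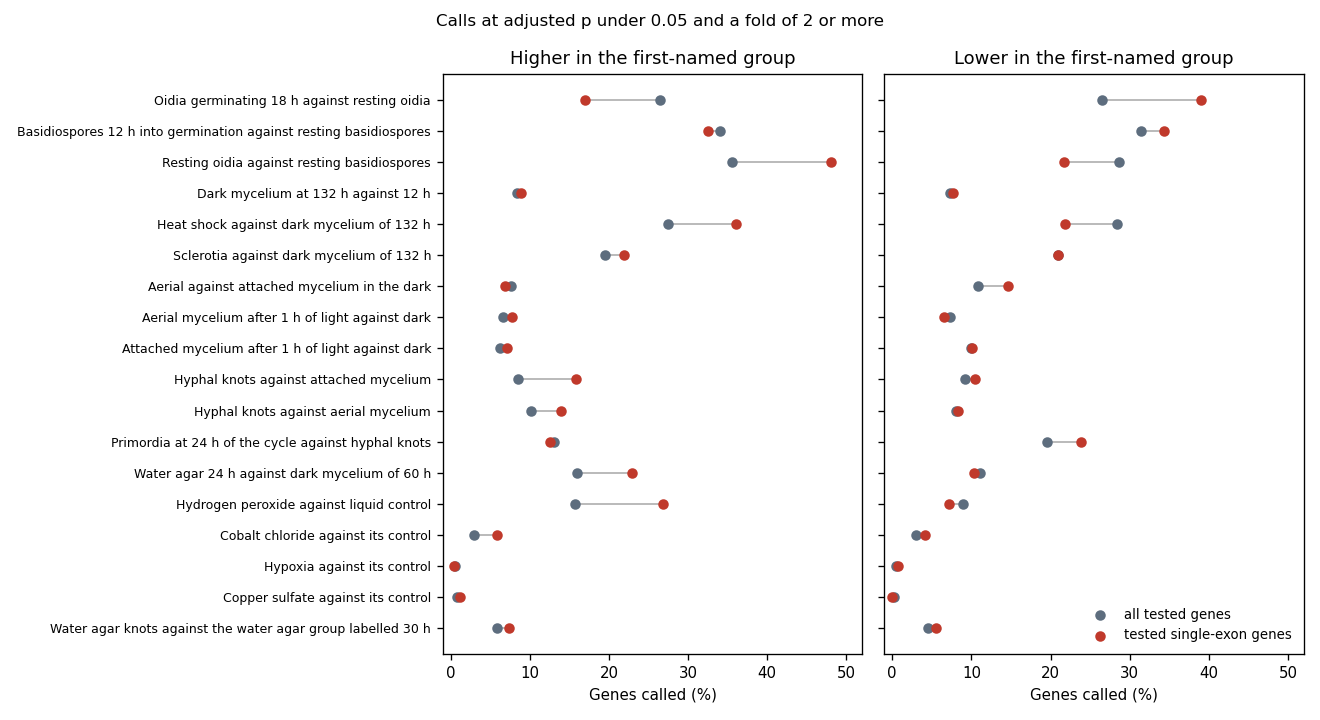
Percent of tested genes called higher (left) and lower (right) in the first-named group of each of the 18 comparisons, for single-exon genes and for all genes tested. The widest distances are in resting and germinating oidia, heat shock, hyphal knots and hydrogen peroxide, where 26.8% of single-exon genes and 15.6% of all genes were higher.

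With hydrogen peroxide, against the liquid control, single-exon genes rose more often than other genes. Of 295 tested, 79 were higher (26.8%, against 15.6% of all genes) and 21 lower (7.12% against 8.96%). Their median log2 change was 0.41 and that of all genes 0.04. By level, single-exon genes exceeded split genes in 4 of 5 classes. The shares were 45.5% against 28.7% under 1, 26.9% against 22.9% at 1 to 3, 20.2% against 15.2% at 3 to 5 and 23.7% against 7.8% at 5 to 7. In the other comparisons given by level, single-exon genes were above split genes in each class. Among the 10 genes at 7 or more none was higher, against 3.0%. Genes with introns only in a UTR were higher in 20.1%. For single-exon genes with an annotated 3′ UTR, no overlap and whole counts it was 27.4%, with no like share of split genes beside it.

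CopciAB_445317.T0 (scaffold 5, 209811 to 210794, 879 bp) rose from 1.23, 3.06 and 6.12 CPM to 79.6, 84.8 and 81.1 (4.56 ± 0.44, adjusted p = 5.54e-05), its highest group. CopciAB_559287.T0 (scaffold 11, 2133013 to 2134697, 1494 bp) fell from 55.4, 80.8 and 25.1 CPM to 8.60, 10.4 and 18.3 (−2.08 ± 0.41, adjusted p = 0.00289).

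**Figure D5:**
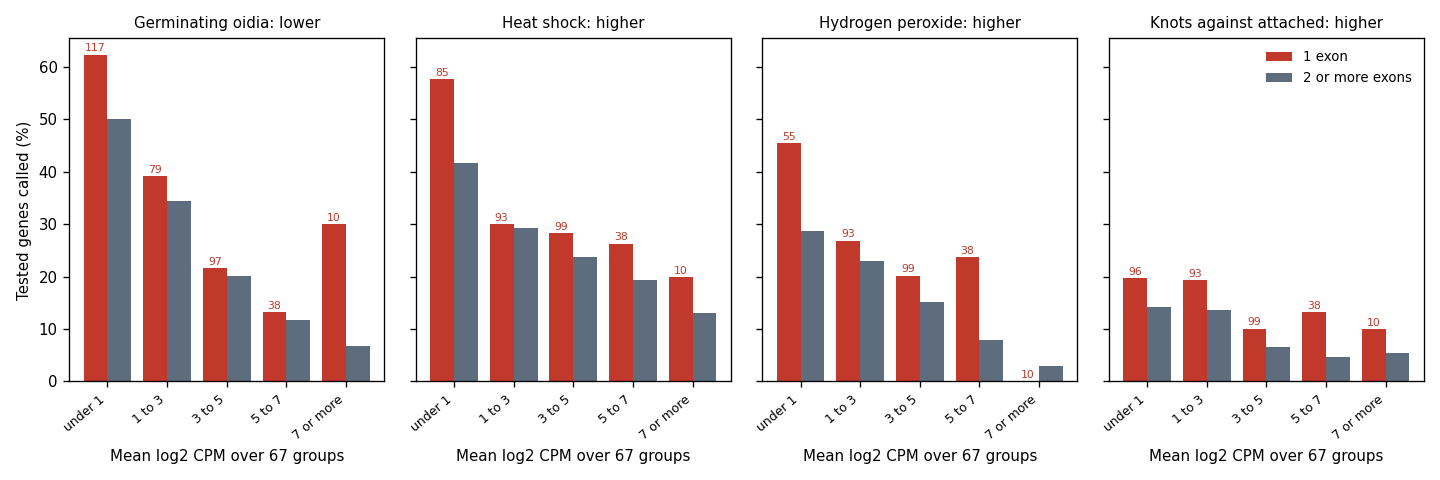
Percent of tested genes called in 4 comparisons, by the level of the gene, for single-exon genes (number tested above each bar) and genes of 2 or more exons. Shares are highest at a level under 1 in both kinds of gene, and single-exon genes stand above split genes in each class under 7; the class of 7 or more holds 10 single-exon genes.

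Starvation on water agar called 64 of 280 higher (22.9% against 16.0%) and 29 lower (10.4% against 11.1%). Genes with introns only in a UTR were higher in 21.1%. By level the shares higher were 31.0% for single-exon genes and 30.9% for split genes under 1, 28.6% and 22.8% at 1 to 3, and 17.2% and 13.3% at 3 to 5. At 5 to 7 they were 15.8% and 10.5%, and at 7 or more 20.0% and 10.8%. CopciAB_447616.T0 rose from 1.56, 2.05 and 1.80 CPM to 153, 150 and 215 (6.61 ± 0.23, adjusted p = 4.57e-10). The same gene had fallen after heat shock. CopciAB_443013.T0 (scaffold 8, 880522 to 881887, 1014 bp) rose from 0.312, 0 and 0.257 CPM to 19.2, 11.8 and 16.6 (6.3 ± 0.47). With 7 counts in all in mycelium of 60 h it passed the filter through the starved group, so no test is given.

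CopciAB_437832.T0 fell on water agar from 383, 343 and 432 CPM to 9.66, 5.96 and 8.56 (−5.56 ± 0.20, adjusted p = 8.30e-10). CopciAB_445318.T0 (scaffold 5, 208268 to 209209, 501 bp) fell from 13.0, 15.0 and 9.41 CPM to 0.779, 1.17 and 0.856 (−3.65 ± 0.33, adjusted p = 2.15e-06). It ends 602 bp before the start of CopciAB_445317.T0, the gene with the largest rise in peroxide.

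Cobalt, hypoxia and copper called few genes of any kind. With cobalt chloride single-exon genes were called more often than all genes tested. There 17 of 290 were higher (5.86% against 2.93%) and 12 lower (4.14% against 2.99%). CopciAB_443953.T0 (scaffold 2, 299872 to 300704, 621 bp) held 0.0958, 0.183 and 0.9 CPM in the control and 3.32, 25.3 and 10.1 with cobalt (4.97 ± 0.99). With 13 counts in all in the control it may have passed the filter through the cobalt group, so no test is given. CopciAB_448984.T0 went from 264, 28.7 and 290 CPM to 2.83, 3.16 and 0.555 (−6.51 ± 1.22, adjusted p = 0.0381). The call of the first was lost on leaving out any 1 control library or library 3 with cobalt. The call of the second was lost on leaving out any 1 library except library 2 of the control.

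Hypoxia called 1 of 267 higher (0.375% against 0.585%) and 2 lower (0.749% against 0.536%). CopciAB_504255.T0 (scaffold 5, 300948 to 302414, 768 bp) rose from 51.0, 56.2 and 43.2 CPM to 127, 94.5 and 107 (1.12 ± 0.21, adjusted p = 0.0286). CopciAB_462516.T0 (scaffold 2, 3769019 to 3770348, 900 bp) fell from 26.7, 41.9 and 43.2 CPM to 8.00, 14.0 and 9.65 (−1.83 ± 0.29, adjusted p = 0.0134). No single-exon gene was called once library 3 of hypoxia, or library 2 or 3 of its control, was left out.

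Copper called 3 of 257 higher (1.17% against 0.788%) and 0 lower (against 0.170%) by edgeR, while 45 of the 257 had an unadjusted p under 0.05 in either direction and DESeq2 called 9 higher and 8 lower. CopciAB_455210.T0 (scaffold 13, 150401 to 151903, 1500 bp, no annotated 3′ UTR) had no count in the control and 9.50, 11.3 and 11.2 CPM with copper, at least 66.1-fold higher. It passed the filter through the copper group, so this is a description with no test. The call was lost without control library 1 or 2. On water agar, 21 of 287 were higher in hyphal knots than in the group labelled 30 h (7.32% against 5.91%) and 16 lower (5.57% against 4.51%). CopciAB_443013.T0 was higher, at 7.98, 15.3 and 12.1 CPM against 2.61, 0.185 and 0.798 (3.31 ± 0.64, adjusted p = 0.00508). CopciAB_437399.T0 (scaffold 11, 406553 to 408322, 1341 bp) was lower, at 6.44, 5.84 and 4.35 CPM against 36.3, 15.3 and 23.2 (−2.13 ± 0.31, adjusted p = 0.000323).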

How the data were processed

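RNA was counted in 67 groups of 3 libraries, made per the labels' protocols with a 3′ mRNA kit whose first strand starts from oligo-dT, and sequenced as single-end reads of 75 bp. The authors deposited expected counts per gene, not normalized, with their CopciAB V2 annotation. Tools named in the submitters' processing notes are STAR 2.6.1a and featureCounts. How strand and multiply mapped reads were handled is not given in the sources used here. Among deposited values above 0, 19.9% were not whole, and counts were rounded before fitting. Reads lie near the 3′ end, so no correction for length was made.

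The members, the gene lists and the tests were chosen with earlier results of these data known. Exons and coding length were read from the annotation, whose coding part leaves out the stop codon. Tests used edgeR 4.0.16 in R 4.3.3 on all genes of the table, with TMM, filterByExpr at a minimum count of 10, the robust quasi-likelihood test and Benjamini-Hochberg adjustment, in 1 fit per family of groups. The procedure was tested on simulated data. Levels used CPM with TMM over all 201 libraries. A fold against a group with no count was set against 3 counts over its libraries and scaled by depth, which covers counting error only.

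Genes named in the text were the 10 most abundant, the 5 most specific and 5 most even, those at the length limit, and in each comparison the called genes with the largest rise and fall (2 each in 6 comparisons). The named changes were limited to genes without overlap or mostly shared reads, to libraries that did not overlap between groups, and to a mean of 10 CPM in the higher group. Of the interaction, the gene with the lowest adjusted p was described, and the run of 4 and the levels of CopciAB_448984.T0 were chosen after their values were seen. The main fits did not pair libraries by replicate number. Alternatives were DESeq2 1.42.0, RLE factors, no filter, a replicate block, fits of 2 groups alone, leaving out each library, other prior counts and thresholds, and subsets by annotation. No column of per-library values was left out. None of the identifiers matched the reference table of 13657 genes.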

Additional observations from a re-analysis of the deposited data

Results flagged for a closer look

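The change after 1 h of light differed between aerial and attached mycelium for 15 single-exon genes by a test of the difference itself, 14 more positive in aerial mycelium and 1 more negative. CopciAB_446662.T0 changed by −1.64 ± 0.19 in aerial and −3.39 ± 0.22 in attached mycelium on the log2 scale, and it overlaps another counted gene. CopciAB_446840.T0 changed by 0.72 ± 0.28 in aerial and −1.90 ± 0.29 in attached mycelium. CopciAB_477339.T0 was the one with the more negative change in aerial mycelium, at −0.90 ± 0.24 against 0.57 ± 0.24.

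CopciAB_448984.T0 had the largest such difference among the 15, at 12.83 ± 3.33 (adjusted p = 0.0401). It had no count in the 3 libraries of dark aerial mycelium, so the size of this value depends on the prior count and is no bound. In the attached mycelium it held 141, 105 and 11.05 CPM in the dark and under 1 CPM in each library after light.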

How the results depend on the processing

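Of 208 recomputed counts of called single-exon genes, 188 stayed within 1.5 times the count given, and of 504 recomputed named changes 477 kept their direction and call, 27 lost the call in 7 changes and 0 reversed. The counts that moved were small. The 15 genes of the light interaction became 25 with DESeq2 and 7 to 19 with a library left out. The 29 of cobalt became 19 to 28 with a library left out, the lowest without cobalt library 3. The 3 of hypoxia became 5 with no filter, 11 with DESeq2 and 0 to 5 with a library left out. The 3 of copper became 8 with no filter, 5 with the replicate block, 17 with DESeq2 and 0 to 5 with a library left out. Deviations of same-numbered libraries had correlations from −0.286 to 0.236, and 0 comparisons had every pair over 0.1. Every pair was positive for aerial against attached mycelium in the dark (0.066 to 0.205) and for primordia against knots (0.032 to 0.050). Whether such libraries came from the same cultures was not tested. The block moved no other count by over 1.5 times. Where a named call was lost, the cause was not tested. The share of calls that were higher moved by over 10 points only for copper, over all genes from 82.3% to 61.1% with DESeq2.

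The level difference of −3.51 was −4.14 without overlapping genes, −2.65 without shared reads, −1.78 with an annotated 3′ UTR, −4.14 with no limit on length or identifier, −3.83 at a prior count of 0.5 and −3.49 by library totals. Within the classes of coding length it was −5.0, −2.74, −1.78, −1.92 and −2.02 from shortest to longest, and −3.53 to −3.48 with a replicate number left out. The share seen in every group (27.5%) was in the same order of subsets 23.2%, 31.4%, 38.0% and 18.2%, then 28.3% without CTGT, 12.5% at 5 CPM and 25.6% to 26.9% with a replicate number left out. The share seen in none (16.1%) was 19.3%, 8.82%, 3.93% and 21.6%, then 19.7% without CTGT and 33.4% at 5 CPM. The median tau (0.556) was 0.604, 0.532, 0.473 and 0.675, then 0.536 without CTGT, 0.677 on log2(CPM + 5) and 0.556 to 0.565 with a replicate number left out. The share of counts (1.33%) was 1.07% without overlap, 0.998% without shared reads and 4.45% with no limits. The share peaking in resting spores (24.7%) was 22.1% with an annotated 3′ UTR, 30.0% with no limits and 28.1% without CTGT. The causes were not tested.

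In the 252 genes with an annotated 3′ UTR, no overlap and whole counts, a subset chosen after seeing the data, 34 of 38 shares called stayed within 1.5 times those given. How far depth limits the 48.4% of genes with a median under 1 CPM was not tested.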
